A study of Homo sapiens with 12 samples.

Results

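The microRNAs (miRNAs) described here are 10 mature products of 2 related gene clusters, out of 2588 mature miRNA entries counted by small RNA sequencing. They were chosen by name: both arms of miR-106b, miR-93 and miR-25, whose hairpins lie together in an intron of MCM7, and the guide arms of miR-106a, miR-18b, miR-20b and miR-363, whose hairpins lie together on the X chromosome. The cells were HEK293T, a human line of embryonic kidney origin expressing the large T antigen of SV40, and they were transiently transfected with a control siRNA or with an siRNA against Tudor-SN, an endonuclease encoded by SND1. The series asked which mature miRNAs Tudor-SN degrades. Each siRNA had 3 libraries in each of 2 runs, 12 in all. Run 1 was made from RNA enriched for short species, with libraries cut from polyacrylamide gels and read on an Illumina NextSeq. Run 2 started from total RNA, labelled as enriched for miRNA, with libraries size-selected by Pippin Prep and read on a HiSeq. SND1 mRNA was not counted, so these data hold no check of the knockdown, and the labels do not say whether the 3 libraries of a group came from separate cultures. Replicate names repeat between the runs, and the labels do not say whether the runs share cultures.

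A miRNA hairpin is cut by Drosha and Dicer into a duplex, of which the guide arm is loaded onto an Argonaute protein while the passenger arm is mostly lost. The guide finds mRNAs mainly through its seed, bases 2 to 8 counted from its 5′ end. The miR-17-92 cluster on chromosome 13, the miR-106b-25 cluster and the miR-106a-363 cluster are paralogs. MYC and E2F factors induce the first, the MCM7 intron cluster is made with an mRNA for a subunit of the replicative helicase, and miRNAs with the miR-17 seed repress cell cycle inhibitors such as CDKN1A.

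The mature sequences are shown because the shared seeds, in capitals, and the few bases that tell the paralogs apart set how the counts can be read. All 10 members matched a RefSeq entry (GRCh38.p14). The first set holds the miR-17 seed, with miR-17-5p and miR-20a-5p of the miR-17-92 cluster for comparison:
hsa-miR-106b-5p: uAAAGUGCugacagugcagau
hsa-miR-93-5p: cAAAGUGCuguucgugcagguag
hsa-miR-106a-5p: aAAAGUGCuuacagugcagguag
hsa-miR-20b-5p: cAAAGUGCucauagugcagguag
hsa-miR-17-5p: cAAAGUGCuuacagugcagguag
hsa-miR-20a-5p: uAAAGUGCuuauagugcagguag

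The second set holds the miR-25 seed, with miR-92a-3p for comparison, and the third the miR-18 seed, which differs from that of miR-17 within the seed itself:
hsa-miR-25-3p: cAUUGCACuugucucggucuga
hsa-miR-363-3p: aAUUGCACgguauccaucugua
hsa-miR-92a-3p: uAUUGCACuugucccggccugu
hsa-miR-18b-5p: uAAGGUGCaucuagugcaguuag
hsa-miR-18a-5p: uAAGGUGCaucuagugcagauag

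The other arms of the MCM7 intron hairpins carry seeds of their own:
hsa-miR-106b-3p: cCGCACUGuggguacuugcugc
hsa-miR-93-3p: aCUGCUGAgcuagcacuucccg
hsa-miR-25-5p: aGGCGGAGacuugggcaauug

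Counted from 1 at the 5′ end, and with the miR-17-92 member as the reference, miR-106a-5p differs from miR-17-5p by C1A alone and miR-18b-5p differs from miR-18a-5p by A20U alone. miR-20b-5p differs from miR-20a-5p by U1C and U10C. Reads of such pairs can be assigned to either, and how the authors treated them is not given in the sources used here, so the separate values of miR-106a-5p, miR-18b-5p and miR-20b-5p are uncertain. miR-106b-5p differs from miR-17-5p at 3 of 21 compared bases, and miR-93-5p at 4 of 23. miR-25-3p differs from miR-92a-3p at 4 of 22 bases.

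On GRCh38 the 3 hairpins of the first cluster span 515 bp of the minus strand of chromosome 7: MIR106B from 100093993 to 100094074, MIR93 from 100093768 to 100093847 and MIR25 from 100093560 to 100093643. GENCODE release 29 places all 3 in an intron of MCM7 on the same strand. The 4 hairpins on the X chromosome span 901 bp of the minus strand, from MIR363 at 134169378 to 134169452, through MIR20B and MIR18B, to MIR106A at 134170198 to 134170278. All 4 overlap exons of the noncoding transcript AC002407.1.

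Libraries of run 1 held 222452 to 1092713 counts assigned to miRNAs and those of run 2 held 927727 to 3140214, and in each run every Tudor-SN siRNA library held more counts than every control library. A count of 0 allows up to 3 counts, equal to 2.75 to 13.5 CPM in the first run and 0.955 to 3.23 CPM in the second (CPM are counts scaled to a common library total). Of 12 markers of muscle, blood, liver, pluripotent and neural cells, 5 to 9 had 0 counts in all libraries of a group. Their summed level was 1255 to 1540 CPM in the run 1 controls and 1592 to 2077 CPM with Tudor-SN siRNA, and 799 to 835 against 831 to 942 CPM in run 2, most of it the neural miR-9-5p. Counts of the muscle miR-1-3p in run 1 were 5, 2 and 1 for control siRNA and 105, 71 and 51 for Tudor-SN siRNA, and those of the muscle miR-133a-3p in run 2 were 0, 0 and 1 for control siRNA and 23, 11 and 16 for Tudor-SN siRNA. The part of these markers in the results below was not tested. In bulk libraries, fewer cells with a miRNA and less of it per cell cannot be told apart.

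The MCM7 intron cluster was well expressed and the X-linked cluster nearly silent. Over the 12 libraries the 6 arms of the first had 324793 counts and the 4 guide arms of the second had 152. The MCM7 arms made up 2.405% ± 0.00647 of all counts for control siRNA in run 1 and 2.59% ± 0.0369 for Tudor-SN siRNA (SD, n = 3). In run 2 they made up 1.74% ± 0.0736 and 2.28% ± 0.0876.

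Levels below are CPM scaled by the trimmed mean of M values (TMM) within each run. miR-25-3p, which represses mRNAs such as that of the cyclin-dependent kinase inhibitor CDKN1C, had the highest count of the 10. Its level in control replicates 1 to 3 was 22029, 22352 and 23471 CPM in run 1 and 14252, 14148 and 13665 CPM in run 2. Next came miR-93-5p, at 1128 ± 150 CPM in controls of run 1 and 3698 ± 114 CPM in controls of run 2. In the controls miR-106b-3p followed, at 348 ± 5.04 and 181 ± 12.3 CPM, and then miR-106b-5p, at 162 ± 45.2 and 128 ± 11.2 CPM. The rarest arms were miR-25-5p (39.4 ± 13.98 and 72.5 ± 9.08 CPM) and miR-93-3p (26.4 ± 11.5 and 5.44 ± 0.764 CPM). The order was the same in both runs, and no neighbours overlapped in the controls except miR-25-5p and miR-93-3p in run 1. The mature forms are 21 to 23 nt long, so no correction for length was made, and the order is one of counts, which need not be that of molecules.

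**Figure D1:**
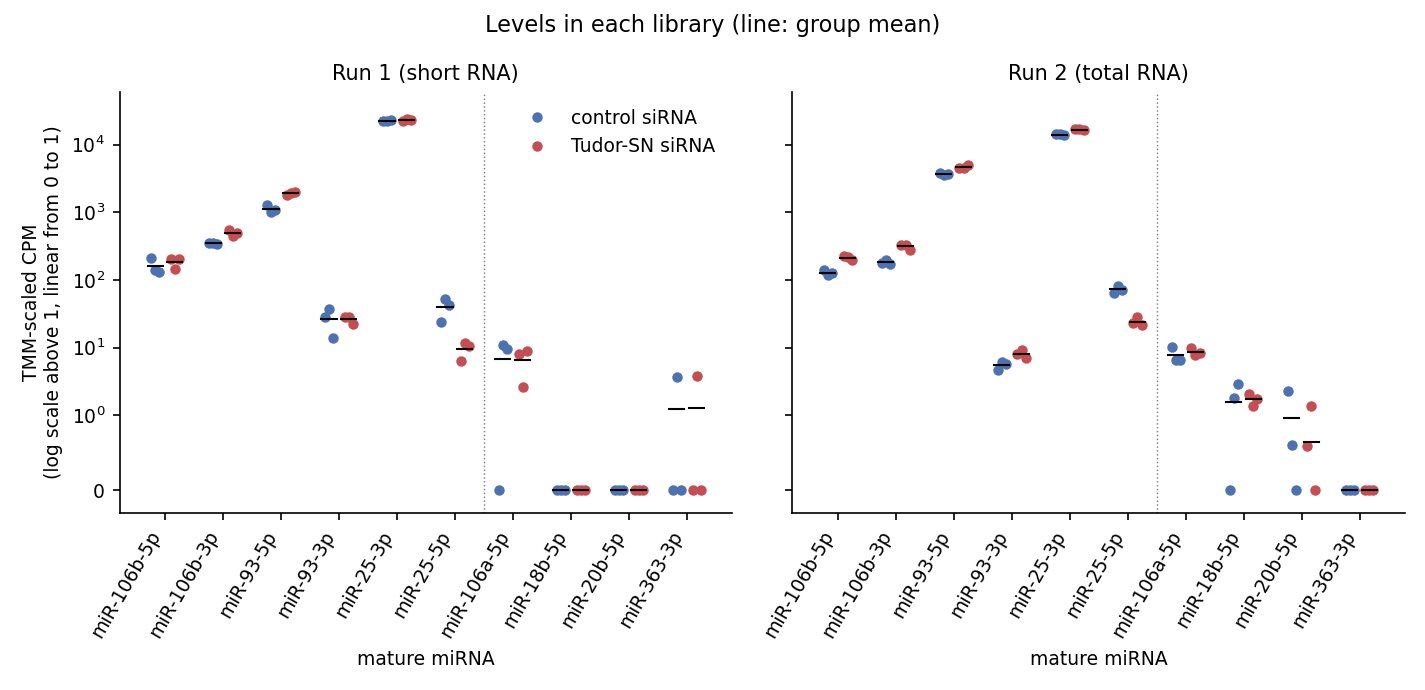
Each point is 1 library and each short line a group mean, in TMM-scaled CPM on an axis that is logarithmic above 1 and linear from 0 to 1, with run 1 on the left and run 2 on the right. miR-25-3p stands highest in both runs, the X-linked miRNAs right of the dotted line lie at or near 0, and miR-25-5p is the 1 member lower with Tudor-SN siRNA in both.

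Which arm of a hairpin was counted most differed within the MCM7 cluster. The 5p arm held 97.7% ± 1.12 of the counts of MIR93 in controls of run 1 and 99.85% ± 0.0248 in controls of run 2. For MIR25 it was the 3p arm that dominated, with the 5p arm at 0.173% ± 0.0608 and 0.514% ± 0.0648. MIR106B was mixed, with the 5p arm at 31.4% ± 5.62 in controls of run 1 and 41.5% ± 3.31 in controls of run 2. In each of the 12 libraries its 3p arm had more counts than its 5p arm, which carries the miR-17 seed, with 5p shares from 23.9% to 44.4%.

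Counts of the X-linked guide arms were close to the floor. miR-106a-5p had 0, 3 and 2 counts with control siRNA and 9, 2 and 6 with Tudor-SN siRNA in run 1. Its run 2 counts were 9, 11 and 7 for control siRNA and 33, 23 and 14 for Tudor-SN siRNA. Its level overlapped between the siRNAs in both runs. miR-18b-5p had 0 counts in all 6 libraries of run 1, and in run 2 it had 0, 3 and 3 against 7, 4 and 3. miR-20b-5p was likewise at 0 throughout run 1 and had 2, 1 and 0 against 2, 4 and 0 in run 2. miR-363-3p, the last guide of the cluster, had 4 counts in run 1, of which 1 was in a control, and 0 in run 2. These counts give no fold change for miR-18b-5p, miR-20b-5p or miR-363-3p.

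The other arms of the X-linked hairpins gave no counts either. miR-106a-3p, miR-18b-3p, miR-20b-3p, miR-363-5p, miR-19b-2-5p and miR-92a-2-5p had 0 counts in each of the 12 libraries. The last pair matters because miR-19b-3p and miR-92a-3p have the same mature sequence from chromosome 13 and from the X chromosome, while their 5p arms differ by copy. miR-92a-1-5p, from chromosome 13, had 3856 counts over the 12 libraries, so 0 counts of miR-92a-2-5p allow it a share of up to 0.0778% of the pair. For miR-19b, with 145 counts of the chromosome 13 arm, the limit was 2.07%. Intervals and limits on shares cover counting error only, because the reads were amplified by PCR and no identifiers mark separate molecules.

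Set against its near-identical paralog, miR-106a-5p made up 22 of 1024 counts in run 1, or 2.15% (exact Clopper-Pearson 95% interval 1.35 to 3.23), and 97 of 49375 in run 2, or 0.197% (0.159 to 0.240). The level of miR-106a-5p itself lay between 6.51 and 8.59 CPM in the 4 group means. That of miR-17-5p was 161 ± 22.9 CPM in controls of run 1 and 3269 ± 114 CPM in controls of run 2. In run 2 miR-18b-5p made up 0.202% of the counts it shared with miR-18a-5p (interval 0.123 to 0.312), and miR-20b-5p made up 0.0115% of those it shared with miR-20a-5p (0.00527 to 0.0219). miR-363-3p is not near-identical to miR-92a-3p, from which it differs at 12 of 22 bases. It was 0 of 2317734 counts together with miR-92a-3p in run 2, which allows a share of up to 0.000129%.

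The comparison of the siRNAs asks which members were higher or lower after transfection with Tudor-SN siRNA, relative to the other miRNAs. Of the 10 members, 6 passed the filter on low counts in run 1 and 7 in run 2, the miRNAs left out being X-linked. In run 1 the edgeR quasi-likelihood test called 2 members higher, 1 lower and 3 neither, and over all 224 miRNAs tested it called 44.2%, with 21.4% higher and 22.8% lower. For run 2 it called 4 members higher, 1 lower and 2 neither, where 50.9% of 383 tested miRNAs were called, 24% higher and 26.9% lower. The median log2 fold change of the tested members was 0.10 in run 1 and 0.33 in run 2, and that of all tested miRNAs was -0.05 and -0.02. A change common to all miRNAs would not be seen in these relative values.

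**Figure D2:**
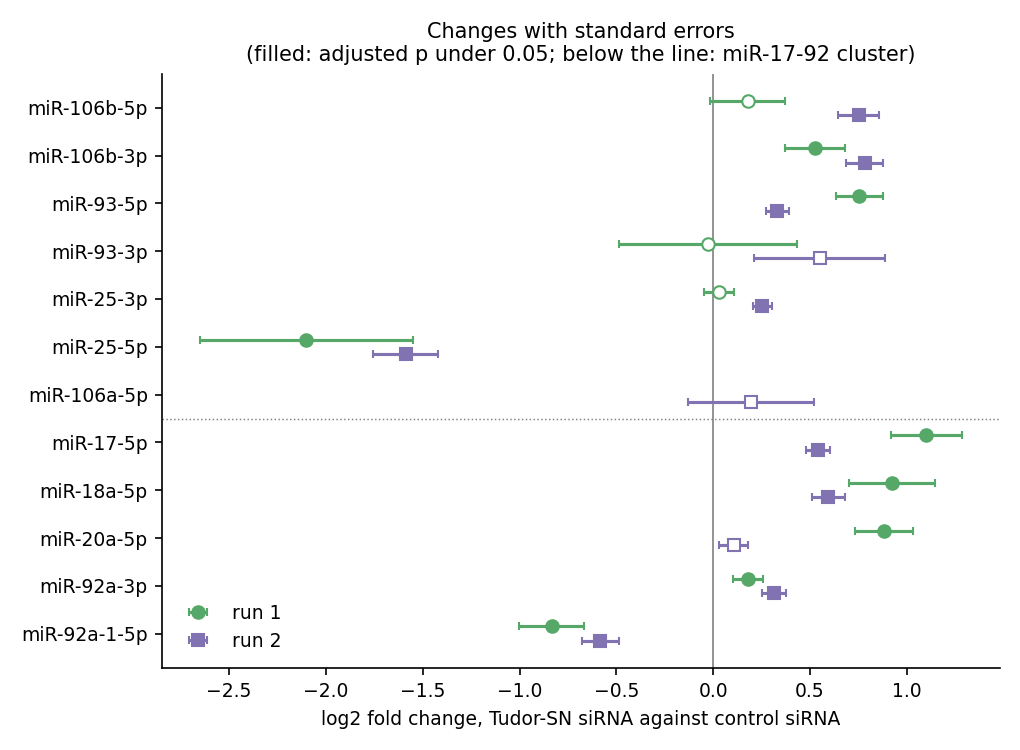
Points are log2 fold changes of Tudor-SN siRNA against control siRNA with bars of 1 standard error, for run 1 (circles) and run 2 (squares), filled where the edgeR adjusted p was under 0.05. miR-25-5p stands alone at the left among the members at -2.10 and -1.59, and of the miR-17-92 arms below the dotted line miR-92a-1-5p is the 1 called lower.

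miR-106b-3p, the more abundant arm of the first hairpin, rose in both runs. In run 1 it was at 351, 351 and 342 CPM in the controls and at 547, 453 and 501 CPM with Tudor-SN siRNA, with a log2 fold change of 0.53 (SE 0.15, edgeR adjusted p = 0.00205). In run 2 it was at 176, 195 and 172 CPM against 325, 331 and 279 CPM, with a log2 fold change of 0.78 (SE 0.10, edgeR adjusted p = 5.08e-06). All 3 Tudor-SN siRNA libraries lay above all 3 controls in each run, as groups did without overlap in either direction for 52.7% of tested miRNAs in run 1 (22.8% higher, 29.9% lower) and 59.0% in run 2 (27.9% higher, 31.1% lower). The run 1 call was lost under upper quartile scaling (0.33, edgeR adjusted p = 0.0900), which moved the median of all tested miRNAs from -0.05 to -0.24.

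miR-106b-5p, which represses CDKN1A and other genes through the miR-17 seed, rose in run 2. There it was at 141, 119 and 125 CPM in the controls and at 229, 217 and 195 CPM with Tudor-SN siRNA, without overlap, and its log2 fold change was 0.75 (SE 0.11, edgeR adjusted p = 2.09e-05). In run 1 the groups overlapped, at 214, 140 and 131 CPM against 204, 142 and 203 CPM, and its log2 fold change of 0.18 (SE 0.19, edgeR adjusted p = 0.513) did not pass. Those run 1 control levels rest on 53, 38 and 28 counts, fewer than in any other group. The difference between the runs, 0.46 (SE 0.25) in a fit over all 12 libraries with its own scaling factors, did not pass either (edgeR adjusted p = 0.261). Leaving out 1 library moved the run 1 value between 0.0082 and 0.44 and the difference between runs between 0.19 and 0.57, and none of these passed.

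miR-93-5p shares that seed and also represses CDKN1A. It rose in run 1 from 1298, 1016 and 1069 CPM to 1811, 1901 and 1998 CPM, a log2 fold change of 0.75 (SE 0.12, edgeR adjusted p = 7.68e-09). In run 2 it rose from 3823, 3600 and 3672 CPM to 4463, 4443 and 5043 CPM, a log2 fold change of 0.33 (SE 0.06, edgeR adjusted p = 0.000215). The groups did not overlap in either run. It was the 1 member whose change differed between the runs, by -0.53 on the log2 scale in run 2 relative to run 1 (SE 0.12, edgeR adjusted p = 0.00163). This value comes from the fit over all 12 libraries, whose TMM factors rest on 378 miRNAs, and is not the difference of the 2 run values. Of these 378 miRNAs, 11.6% were called for such a difference, 3.44% higher and 8.20% lower in run 2. The call of miR-93-5p was lost with library size alone (-0.34, edgeR adjusted p = 0.0725) and with TMM over all 12 libraries together (-0.37, edgeR adjusted p = 0.0636). Of 11 miR-17-92 arms tested for such a difference, 4 were also called lower in run 2, 0 higher and 7 neither. The 4 included miR-17-5p (-0.67, edgeR adjusted p = 0.00613) and miR-20a-5p (-0.89, edgeR adjusted p = 0.000301), which hold the same seed.

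Its passenger arm miR-93-3p was too rare for a firm value. It had 7, 10 and 3 counts against 32, 22 and 15 in run 1, and 4, 10 and 6 against 27, 27 and 12 in run 2. Its log2 fold changes were -0.03 (SE 0.46) and 0.55 (SE 0.34), and neither passed (edgeR adjusted p = 0.984 and 0.187). In run 2 its 3 Tudor-SN siRNA libraries, at 8.01, 9.11 and 7.05 CPM, lay above the controls at 4.58, 6.04 and 5.70 CPM. Such a separation upward was seen for 27.9% of the miRNAs tested in run 2. All Tudor-SN siRNA libraries of run 2, but not all controls, reached the level that the filter on low counts asks for. miR-93-3p was thus tested only through the group where it was higher, and the separation is no support for a rise.

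The arms of miR-25 went opposite ways in run 2. The hairpin is shown with both mature arms in capitals, miR-25-5p first and miR-25-3p second:
MIR25: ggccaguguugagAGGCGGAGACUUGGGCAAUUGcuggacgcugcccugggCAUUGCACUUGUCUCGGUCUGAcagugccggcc

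The guide miR-25-3p was at 22280, 24034 and 22993 CPM with Tudor-SN siRNA in run 1, overlapping the controls, with a log2 fold change of 0.03 (SE 0.08, edgeR adjusted p = 0.807). It rose in run 2 to 16918, 16869 and 16395 CPM, all above the controls, a log2 fold change of 0.25 (SE 0.05, edgeR adjusted p = 0.000421). The passenger miR-25-5p fell in both runs. It went from 24.2, 51.7 and 42.2 CPM in the run 1 controls to 6.25, 11.6 and 10.4 CPM with Tudor-SN siRNA, and from 64.1, 82.1 and 71.2 CPM to 22.8, 28.01 and 21.7 CPM in run 2. The groups did not overlap in either run. The log2 fold changes were -2.10 (SE 0.55, edgeR adjusted p = 0.000471) and -1.59 (SE 0.17, edgeR adjusted p = 8.84e-07), the 8th lowest of 224 and the 9th lowest of 383. In run 1 only the control libraries reached the level that the filter on low counts asks for. The run 1 call and rank are thus partly set by the filter, since miR-25-5p was tested only through the group where it was higher. The run 1 values rest on 6, 14 and 9 counts in the controls and 7, 9 and 7 with Tudor-SN siRNA, in libraries of 222452 to 270191 and of 658568 to 1092713 counts. In run 2 it had 56, 136 and 75 counts against 77, 83 and 37. Depth went with the siRNA in both runs, and its part in this fall was not tested.

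The ratio of the arms of 1 hairpin needs no scaling, but its precision still rests on the counts given above. Because 0.5 was added to each count, log2 ratios of rare arms also depend somewhat on depth. With 1 or 0.1 added, the average difference for miR-25 given below was -1.943 or -1.955. miR-25-5p made up 0.110%, 0.231% and 0.179% of the counts of its hairpin in the run 1 controls and 0.0281%, 0.0480% and 0.0453% with Tudor-SN siRNA. In run 2 it made up 0.447%, 0.577% and 0.519% in the controls and 0.135%, 0.166% and 0.132% with Tudor-SN siRNA. The siRNA groups did not overlap in either run, while the share in the run 2 Tudor-SN siRNA libraries was close to that in the run 1 controls. The log2 ratio of miR-25-5p to miR-25-3p went from -9.15 ± 0.514 to -11.22 ± 0.419 with Tudor-SN siRNA in run 1, a difference of -2.06, and from -7.59 ± 0.181 to -9.43 ± 0.177 in run 2, a difference of -1.84. Averaged over the runs the difference was -1.95 (exact permutation test within runs, two-sided p = 0.005, the smallest that 400 arrangements allow, adjusted p = 0.045 over 9 ratios). This ratio uses the same counts as the fall of miR-25-5p above and is not separate evidence of it. The test treats the runs as independent, and the labels do not say whether they share cultures.

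**Figure D3:**
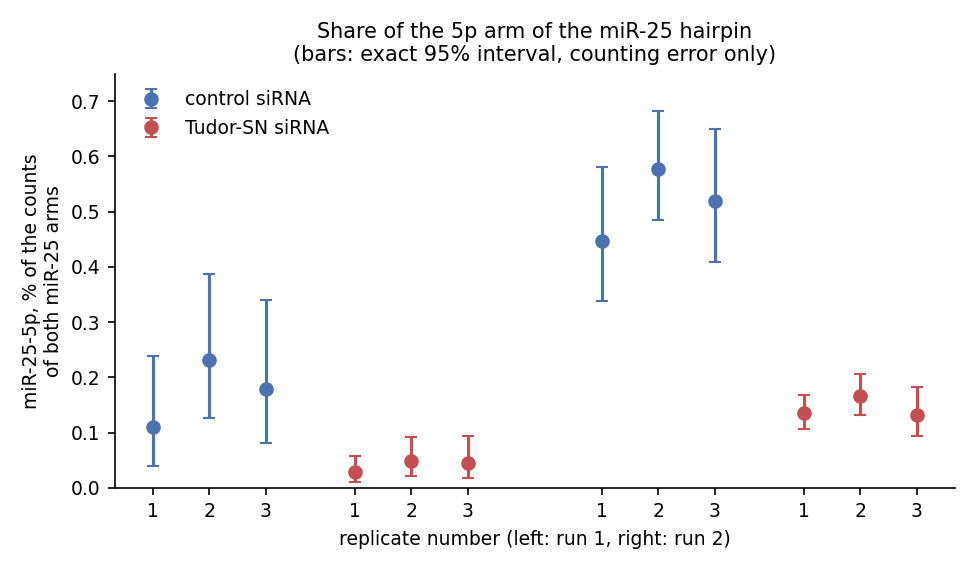
Points give miR-25-5p as a percent of the counts of both miR-25 arms in each library, with bars for the exact 95% interval of counting error, run 1 on the left and run 2 on the right. In each run the 3 Tudor-SN siRNA libraries lie below the 3 controls.

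The arms of the other hairpins of the cluster showed no such shift. The log2 ratio of miR-106b-5p to miR-106b-3p changed by -0.33 in run 1 and -0.05 in run 2, and that of miR-93-5p to miR-93-3p by 0.76 and -0.16. The groups overlapped in both runs for each, and neither passed (exact permutation test within runs, p = 0.19 and 0.325, adjusted p = 0.285 and 0.418). The ratios involving miR-93-3p rest on 3 to 32 counts of that arm, so their precision is low.

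Since the 3 hairpins come from 1 primary transcript, the ratios between their arms with the miR-17 or miR-25 seed were compared too. For MIR106B this is the 5p arm, which had fewer counts than the 3p arm. The log2 ratio of miR-93-5p to miR-25-3p went from -4.33 ± 0.215 to -3.60 ± 0.0699 in run 1 without overlap, and was -1.92 ± 0.0448 and -1.85 ± 0.129 in run 2, with overlap. Averaged over the runs the difference was 0.40, which did not pass after adjustment (exact permutation test, p = 0.03, adjusted p = 0.09). For miR-106b-5p to miR-25-3p the differences were 0.15 in run 1 and 0.48 in run 2 (exact permutation test, p = 0.09, adjusted p = 0.202). The log2 ratio of miR-106b-5p to miR-93-5p moved in opposite directions: run 1 went from -2.81 ± 0.207 to -3.39 ± 0.305, and run 2 from -4.85 ± 0.0809 to -4.44 ± 0.218. The siRNA groups did not overlap in either run for this ratio, and the average difference was -0.09 (exact permutation test, p = 0.685, adjusted p = 0.715).

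Among all miRNAs that share the miR-17 seed, the members from the MCM7 intron and the X chromosome together held 70.6% ± 2.34 of the counts in the run 1 controls and 66.5% ± 2.09 with Tudor-SN siRNA. In run 2 they held 28.2% ± 0.512 and 29.3% ± 0.704. miR-93-5p alone held 61.5% ± 2.87 of this pool in controls of run 1 and 27.2% ± 0.559 in controls of run 2, where miR-20a-5p led with 47.8% ± 0.881. Among miRNAs with the miR-25 seed, miR-25-3p held 50.3% ± 1.24 in the run 1 controls, about level with miR-92a-3p at 48.0% ± 1.33. Its run 2 share was 7.27% ± 0.0525 against 87.7% ± 0.328 for miR-92a-3p. The runs thus differed far more than the siRNAs in the make-up of both pools. RNA fraction, size selection, sequencer, read processing and possibly separate cultures cannot be told apart as sources of a difference between runs.

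**Figure D4:**
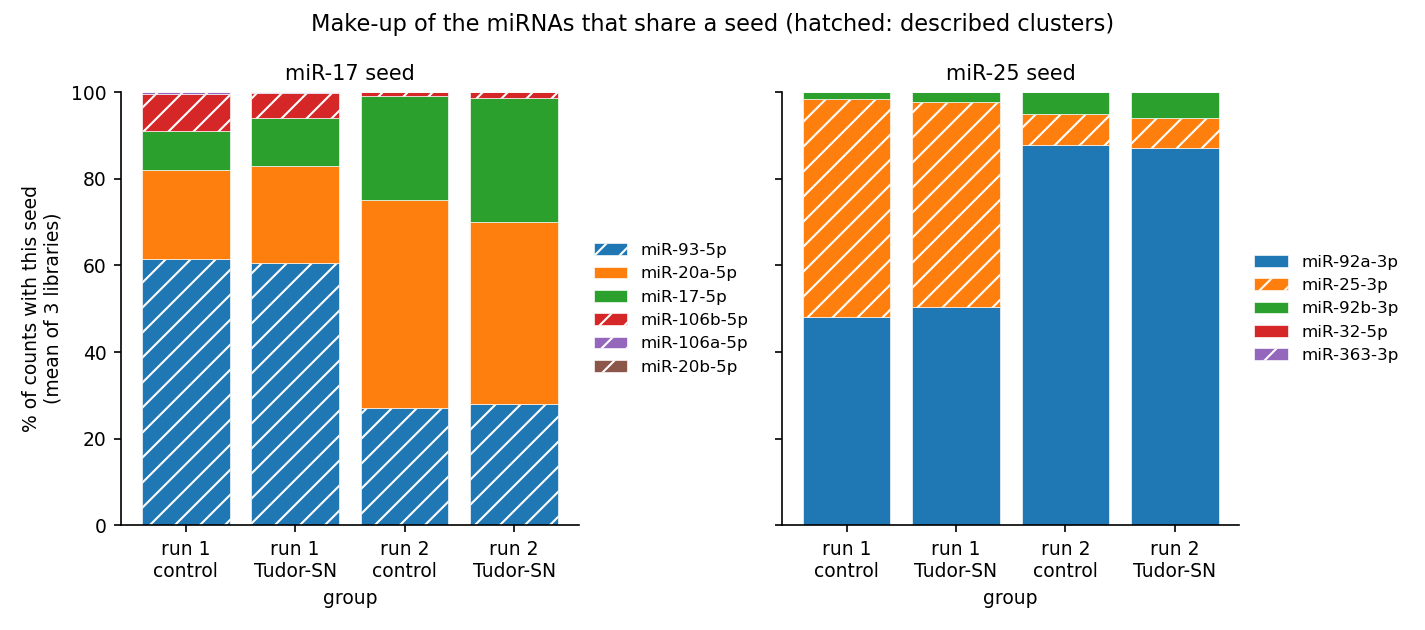
Stacked bars give the mean share over 3 libraries that each miRNA took of the counts with the miR-17 seed (left) and the miR-25 seed (right), with the described clusters hatched. Members hold most of the left pool in run 1 but not in run 2, and miR-25-3p goes from 50.3% to 7.27% of the right pool between the run 1 and run 2 controls.

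The MCM7 arms with the miR-17 or miR-25 seed were also set each against a close relative in the miR-17-92 cluster, and over the runs together no difference in response passed. By the number of differing bases, miR-17-5p and miR-20a-5p are equally near to miR-106b-5p, and equally near to miR-93-5p. The other pairings of these arms were not computed. The log2 ratio of miR-25-3p to miR-92a-3p changed by -0.15 in run 1, without overlap, and by -0.06 in run 2, with overlap (average -0.10, exact permutation test, p = 0.015, adjusted p = 0.0675). Without Tudor-SN siRNA replicate 3 of run 2 the average difference was -0.12 and passed (adjusted p = 0.0225). The ratio of miR-106b-5p to miR-17-5p changed by -0.92 in run 1, where the siRNA groups did not overlap, and by 0.19 in run 2, where they did. That of miR-93-5p to miR-20a-5p changed by -0.15 in run 1, with overlap, and by 0.23 in run 2, without. Neither passed over both runs (exact permutation test, p = 0.15 and 0.715, adjusted p = 0.27 and 0.715). A p that misses the threshold does not show that they responded alike. Ratios of miR-106a-5p, miR-18b-5p, miR-20b-5p and miR-363-3p to their relatives were not computed, because these miRNAs did not pass the filter over both runs.

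Of the 12 arms of the miR-17-92 cluster, 8 were tested in run 1, of which 6 were higher and 1 lower, and 11 in run 2, of which 7 were higher and 1 lower. Their median log2 fold change was 0.69 in run 1 and 0.28 in run 2. The arm lower in both runs was miR-92a-1-5p, at -0.83 (SE 0.17, edgeR adjusted p = 3.95e-06) and -0.58 (SE 0.09, edgeR adjusted p = 7.38e-05). It is the 5p partner of miR-92a-3p and so takes the same place as miR-25-5p does beside miR-25-3p. miR-92a-3p was higher in both runs, at 0.18 (SE 0.08, edgeR adjusted p = 0.0479) and 0.31 (SE 0.06, edgeR adjusted p = 0.000431). The remaining holders of the miR-25 seed were higher where tested: miR-92b-3p in both runs (0.52 and 0.61) and miR-32-5p in run 2 (0.67). miR-367-3p had 0 counts in all 12 libraries.

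Fitted over both runs together with the run as a factor, 4 members were higher, 1 lower and 1 neither, and 48.7% of 378 tested miRNAs were called, 23% higher and 25.7% lower. The log2 fold changes were 0.57 (SE 0.13) for miR-106b-5p, 0.72 (SE 0.09) for miR-106b-3p, 0.57 (SE 0.09) for miR-93-5p, 0.19 (SE 0.06) for miR-25-3p and -1.66 (SE 0.18) for miR-25-5p (edgeR adjusted p from 1.3e-07 to 0.0093). miR-93-3p, at 0.32 (SE 0.26), did not pass. This fit treats the runs as independent, which the labels do not settle. In the authors' deposited table miR-25-5p had log2 fold changes of -1.77 in run 1 and -1.47 in run 2, and miR-93-5p had 0.88 and 0.41.

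Tudor-SN cuts miRNAs at CA and UA dinucleotides away from their ends. Of the 10 members, 9 hold at least 1 CA or UA more than 5 bases from either end, and miR-25-5p holds none. That 0 depends on the window, since miR-25-5p has a CA at bases 16 and 17 of 21, which counts when 4 rather than 5 bases are left out at either end. The CA counted in miR-25-3p lies at bases 6 and 7 of 22, the first place the window allows, so its count depends on the window too. The 3 arms of the MCM7 cluster with the miR-17 or miR-25 seed, miR-106b-5p, miR-93-5p and miR-25-3p, hold 1 CA each. miR-106b-3p holds 1 UA and miR-93-3p holds 1 CA and 1 UA, and the 4 X-linked guides hold 3 such dinucleotides each. Of the tested miRNAs with a RefSeq sequence, 82.8% of 198 held at least 1 in run 1 and 77.7% of 341 in run 2. The median log2 fold change of those with and without was 0.01 and -0.50 in run 1 and 0.04 and -0.22 in run 2. A match is a description of the sequence and not a measured cut, and many miRNAs share families and so are not independent.

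Over the 12 libraries, with each run centred on its own mean, the miRNAs whose log2 CPM followed that of miR-25-3p most closely were miR-378a-5p (Pearson r = 0.963), miR-378a-3p (0.962) and miR-92b-3p (0.927). Those nearest to miR-25-5p were miR-4634 (0.972), miR-10a-3p (0.958) and miR-192-5p (0.951), each lower with Tudor-SN siRNA. For miR-106b-5p they were miR-21-5p (0.854), miR-32-5p (0.847) and miR-186-5p (0.843). They were picked as the highest of 377 miRNAs, and the points share their libraries and include the difference between the siRNAs.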

How the data were processed

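Per the file headers, the deposited table gave for each of 12 libraries the authors' raw counts per mature miRNA, a DESeq-normalized signal (a constant multiple of the count in each library) and RPM, which summed to 999768 to 1000466. It also gave, per run, the authors' adjusted p-value and log2 fold change. Bowtie2 is listed for both runs in the submitters' processing notes, and for run 2 also DESeq, DESeq2 and cutadapt. The sources used here do not give settings, genome build or miRNA annotation.

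The whole table of raw counts was fitted in R 4.3.3 with edgeR 4.0.16 (quasi-likelihood F test, TMM within each run, filterByExpr with a minimum count of 10 and total of 15). Benjamini-Hochberg adjustment covered all tested miRNAs, at a threshold of 0.05. The fits were checked on simulated data. Groups came from sample titles, and since nothing says that replicates were separate cultures, p-values speak only of library-to-library spread, possibly technical. Tests over both runs treat the 12 libraries as independent, so their p-values would not hold if the runs share cultures. Ratios used log2 of counts plus 0.5 and an exact permutation test within runs; 4 of 13 planned ratios were left out for low counts. Errors are SD over 3 libraries. Members and lists were chosen with earlier results of these data known. All 10 members were named, with the miR-17-92 arms, other X-linked arms and other miR-25 seed holders, and the 3 miRNAs nearest to each of 3 members. Alternatives were other scalings, no filter, DESeq2 1.42.0, a replicate block and leaving out each library.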

Additional observations from a re-analysis of the deposited data

Results flagged for a closer look

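miR-93-5p stood out among the members because its response to Tudor-SN siRNA differed between the runs by -0.53 on the log2 scale (SE 0.12, edgeR adjusted p = 0.00163). Fitted in each run alone, the response was larger in run 1 (0.75) than in run 2 (0.33), with 6 of 6 Tudor-SN siRNA libraries above all controls of their run. Such a separation upward was seen for 22.8% of tested miRNAs in run 1 and 27.9% in run 2. The difference did not pass with library size alone (-0.34, edgeR adjusted p = 0.0725) or with TMM over all 12 libraries (-0.37, edgeR adjusted p = 0.0636). It was not particular to miR-93-5p, since 4 of 11 tested miR-17-92 arms were also called lower in run 2, among them miR-17-5p (-0.67) and miR-20a-5p (-0.89). Over all 378 miRNAs tested for such a difference, 8.20% were called lower in run 2. The log2 ratio of miR-106b-5p to miR-93-5p stood out because it was lower with Tudor-SN siRNA in all libraries of run 1 and higher in all libraries of run 2, a difference of 0.98 between the runs that was not tested.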

How the results depend on the processing

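Of the values for single members under an alternative, 368 kept their direction and their side of the threshold, 9 changed sign, 3 stopped passing and 1 began to pass. With upper quartile scaling, run 1 had 1 member higher in place of 2, and miR-106b-5p (-0.0089) and miR-25-3p (-0.16) changed sign in run 1 without passing. The sign of miR-93-3p in run 1 also changed with RLE scaling (0.0090), no filter (0.17), DESeq2 (0.013) and on leaving out a library (-0.28 to 0.31), as did that of miR-25-3p (-0.054 to 0.077). None of these passed. For the difference between runs, library size alone gave 1 member higher and 0 lower, the member being miR-25-3p (0.31, edgeR adjusted p = 0.0215), and TMM over all 12 libraries gave 0 lower. These scalings moved the median of all miRNAs from 0.03 to 0.22 and 0.19. Of all run 1 calls, 48.5% were higher, and 32.4% with upper quartile scaling. The share was 47.2% in run 2 (57.9% with no filter), 47.3% over both runs (61.2% with DESeq2) and 29.5% for the difference between runs (43.8% with upper quartile scaling, 66.7% with library size alone and 61.8% with TMM over all libraries). The causes were not tested.

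Ratios within each run alone, whose smallest two-sided exact p is 0.1, moved or changed sign for miR-93-5p/miR-93-3p (0.757 and -0.16), miR-93-5p/miR-25-3p (0.73 and 0.0736), miR-106b-5p/miR-93-5p (-0.58 and 0.405), miR-106b-5p/miR-17-5p (-0.924 and 0.194) and miR-93-5p/miR-20a-5p (-0.148 and 0.226). Leaving out each library gave -0.0190 to 0.0942 for miR-93-5p/miR-20a-5p, -0.121 to -0.0826 for miR-25-3p/miR-92a-3p -0.249 to -0.0852 for the arms of miR-106b, 0.13 to 0.458 for those of miR-93, -0.149 to -0.00217 for miR-106b-5p/miR-93-5p and -2.09 to -1.83 for the arms of miR-25. Neither of the other pseudocounts, 1 and 0.1, changed a call.

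Samples were not treated as paired by replicate number, since not every pair's deviations correlated above 0.1. In run 1 the 3 same-numbered pairs (0.0816 to 0.149) all exceeded the others (-0.141 to 0.00881), a hint of pairing from the data and not the design. In run 2 they had 0.0443 to 0.0717, and control replicate 2 followed Tudor-SN siRNA replicate 1 more closely (0.0894). With the number as a replicate block the counts of members called stayed at 2 higher and 1 lower in run 1 and 4 and 1 in run 2. The arm ratio of miR-25 kept its value of -1.95 under the block but did not pass (exact sign-flip test, adjusted p = 0.141, where the smallest unadjusted p is 0.0312). The counts of the X-linked miRNAs and miR-93-3p limit their precision. The window for internal CA and UA dinucleotides was varied after seeing the data.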
